A study of Lobosphaera incisa with 32 samples.

Results

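ATG8 (g4496), ATG4 (g4008) and ATG5 (g10190) of the green microalga Lobosphaera incisa were examined in the transcriptome of N-deprived cells. They are 3 of 16722 genes in the deposited quantification and were picked by identifier. Their names come from a table of putative ATG genes made for this alga. The names rest on similarity to proteins of other organisms, and the files used here hold no protein sequence against which to check them. All cultures were of the wild-type strain SAG 2468, grown axenically, and total RNA was sequenced from 32 samples in 4 conditions. Control was the nutrient-replete culture in logarithmic growth, sampled at 0 h in normal light (NL), a photon flux of 75 µmol per square metre and second. N-deprived cells were sampled after 12 h in high light (HL) of 150 µmol, and after 72 h under NL and under HL. In every condition, 2 biological replicates were each split into 4 technical replicates, but the deposited quantification holds 1 pooled value for the condition.

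ATG8 is a small ubiquitin-like protein that becomes bound to the membrane of the growing autophagosome. In yeast and plants, the cysteine protease ATG4 trims its C-terminus to expose a glycine. The activating enzyme ATG7 and the conjugating enzyme ATG3 then join ATG8 to phosphatidylethanolamine, from which ATG4 can release it again. In a second conjugation system ATG7 and ATG10 join the ubiquitin-like protein ATG12 to ATG5, and this conjugate, together with ATG16, promotes the lipidation of ATG8. The process is known for the recycling of cell contents under nutrient shortage.

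FPKM and TPM were used as levels, both of which are per transcript length, so that genes can be set beside each other. The pooled expected counts (fragments assigned to genes) amounted to between 148630272 and 329774484 per condition. Intervals given with a level are the 95% intervals from RSEM, and those given with a ratio are exact counting intervals at the same confidence. Neither kind covers the spread between cultures, since a pooled value carries no information on how cultures varied. No test over cultures can be made from these values, which do not show whether a difference exceeds the spread between biological replicates. Ratios at least 2-fold are counted as calls in that sense only. The 12 h HL and 72 h HL conditions differ from Control in light, time and N supply at once, while 72 h NL differs in time and N supply. As whole cultures were extracted, a higher level in each cell cannot be told apart from a larger share of cells that hold the transcript.

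ATG8 transcripts were most abundant at 72 h, while those of ATG4 were highest at 12 h and those of ATG5 stayed within a narrow range. ATG8, the substrate of the system, had 265 FPKM (interval 262 to 267) in Control, 416 (414 to 419) at 12 h HL, 827 (824 to 830) at 72 h NL and 962 (958 to 967) at 72 h HL. The order of these 4 levels was the same in TPM, with 395, 709, 1498 and 1659 TPM, and no 2 of the intervals overlapped. The values rest on between 37233 and 257533 expected counts. Among all 16722 genes ATG8 ranked 321 by FPKM in Control, 176 at 12 h HL, 77 at 72 h NL and 62 at 72 h HL.

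ATG4, the protease that processes ATG8, was a gene of moderate level. It had 14.2 FPKM (13.8 to 14.7) in Control, 32.1 (31.6 to 32.6) at 12 h HL, 21.6 (21.3 to 22.0) at 72 h NL and 21.0 (20.6 to 21.5) at 72 h HL, from between 4093 and 17667 expected counts. The 12 h level lay above the other 3, both 72 h levels lay above Control, and the 72 h levels under NL and HL overlapped in their intervals. In TPM the values were 21.3, 54.7, 39.2 and 36.2, in the same order.

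ATG5, the acceptor of ATG12, differed least between the conditions. It had 35.3 FPKM (34.6 to 36.1) in Control, 45.1 (44.5 to 45.8) at 12 h HL, 39.1 (38.5 to 39.6) at 72 h NL and 38.2 (37.5 to 38.8) at 72 h HL. Again the 2 levels at 72 h overlapped in their intervals. By TPM the levels of ATG5 were 52.7, 76.8, 70.7 and 65.8. The place of the 12 h level in this order depended on the scaling: with size factors from the median of ratios, ATG5 at 12 h HL was 1.11 times its Control level, below the 1.16 at 72 h NL and the 1.13 at 72 h HL.

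**Figure D1:**
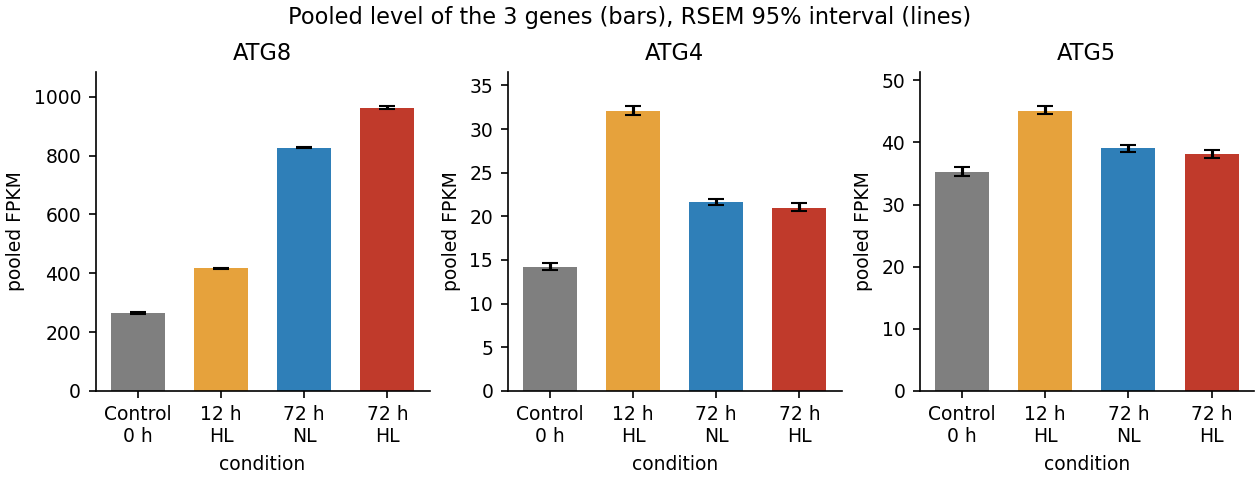
Pooled FPKM (y axis, linear from 0, a separate scale for each gene) of ATG8, ATG4 and ATG5 in Control, 12 h HL, 72 h NL and 72 h HL (x axis). Bars are the deposited values and lines the 95% intervals from RSEM, which hold no spread between cultures; ATG8 reaches 962 FPKM at 72 h HL, whereas ATG4 and ATG5 are highest at 12 h HL, with 32.1 and 45.1 FPKM.

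Each of the 3 genes has a single transcript in the annotation used, of 963 bases for ATG8, 1919 bases for ATG4 and 1578 bases for ATG5. In the transcript sheets each takes 100% of its gene's level in all 4 conditions, with the same FPKM as the gene row. A shift between isoforms therefore does not enter the values of these genes as they were quantified.

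Each of the 3 starved conditions was compared with Control to see which parts of the conjugation machinery differed in transcript level with N deprivation. Between the conditions, the ratio of FPKM shifted for genes in general. Over all genes that reached 1 FPKM in either condition, the median log2 ratio to Control was 0.22 at 12 h HL, -0.04 at 72 h NL and -0.08 at 72 h HL. With TPM these medians were 0.42, 0.24 and 0.13, and with size factors they were 0.03, 0.02 and -0.02. The distance of a gene from the median of all genes is therefore given beside its ratio.

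At 12 h HL, 1 of the 3 genes was at least 2-fold higher than in Control and none was at most 0.5-fold, where 19.5% of 14043 genes were at least 2-fold higher and 6.92% at most 0.5-fold. This was ATG4, with 32.1 FPKM at 12 h HL against 14.2 in Control, a ratio of 2.25 (2.18 to 2.33), and it lay 0.95 log2 units above the median gene. With size factors its ratio was 1.96, just under the 2-fold limit. Of the genes compared, 83.5% had a smaller ratio. ATG8 had 416 FPKM at 12 h HL against 265 in Control, a ratio of 1.57 (1.55 to 1.59) and 0.43 above the median on the log2 scale. ATG5 had a ratio of 1.28 (1.25 to 1.31), which lay 0.13 above the median, and 57.2% of genes had a smaller one.

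At 72 h NL it was ATG8 alone of the 3 that was at least 2-fold higher than in Control, in a comparison where 11.7% of 13789 genes were so and 17.7% were at most 0.5-fold. With TPM the balance of all genes was turned, with 2405 at least 2-fold higher and 1852 lower, against 1619 and 2434 with FPKM. ATG8 had 827 FPKM at 72 h NL against 265 in Control, a ratio of 3.12 (3.09 to 3.16) that exceeded that of 94.4% of genes and lay 1.69 above the median in log2 units. ATG4 had 21.6 FPKM at 72 h NL against 14.2 in Control, a ratio of 1.52 (1.47 to 1.57), 0.65 above the median. For ATG5 the ratio was 1.11 (1.08 to 1.13), 0.19 above the median.

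The values at 72 h HL were close to those at 72 h NL, and both comparisons share the Control libraries. Again 1 of the 3 genes was at least 2-fold higher than in Control, with 11.9% of 13827 genes at least 2-fold higher and 17.6% at most 0.5-fold. With TPM 2157 genes were higher and 1973 lower by this limit, against 1652 and 2431 with FPKM. ATG8 had 962 FPKM at 72 h HL against 265 in Control, a ratio of 3.64 (3.60 to 3.68), and 95.1% of genes had a smaller ratio. ATG4 had a ratio of 1.47 (1.42 to 1.53) and ATG5 one of 1.08 (1.05 to 1.11), which were 0.64 and 0.19 above the median of all genes on the log2 scale.

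**Figure D2:**
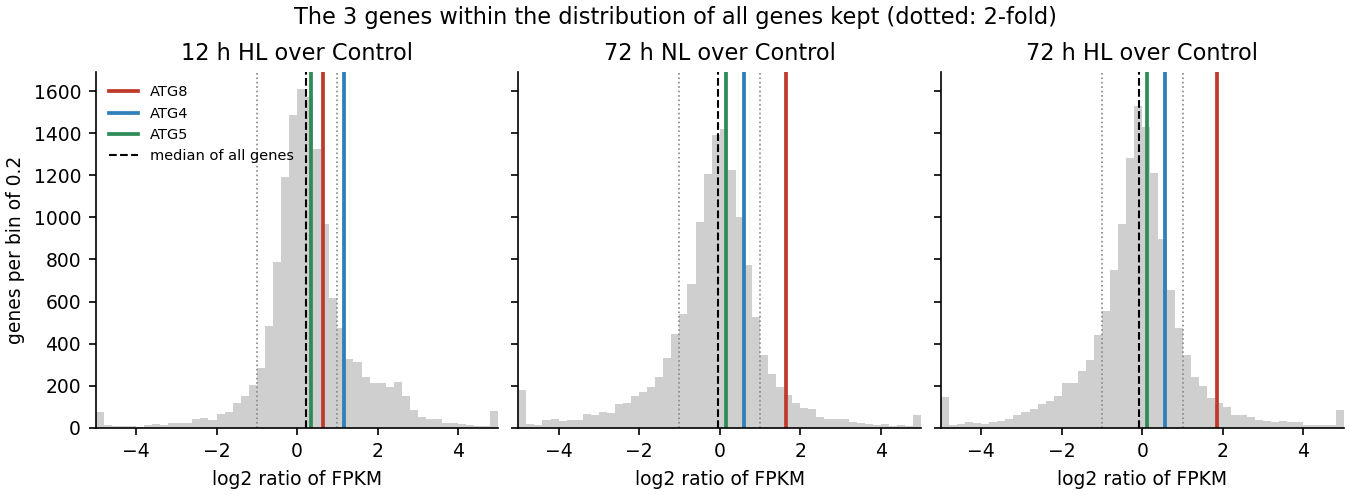
Number of genes (y axis) per bin of 0.2 in the log2 ratio of FPKM (x axis) for 12 h HL, 72 h NL and 72 h HL, each over Control, among genes that reached 1 FPKM in either condition; the outermost bins also hold all genes beyond the axis. Coloured lines mark ATG8, ATG4 and ATG5, the dashed line the median of all genes and dotted lines a 2-fold ratio: ATG4 lies past the upper dotted line at 12 h HL (log2 ratio 1.17), ATG8 at 72 h NL (1.64) and at 72 h HL (1.86).

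The starved conditions were also compared with each other. When HL was set against NL at 72 h, none of the 3 genes was past the 2-fold limit, where 4.12% of 13333 genes were past it on the higher side and 2.33% on the lower side. ATG8 had 962 FPKM at 72 h HL against 827 at 72 h NL, a ratio of 1.16 (1.16 to 1.17), and 75.3% of genes had a smaller ratio. The ratio of HL to NL was 0.970 (0.945 to 0.997) for ATG4 and 0.978 (0.956 to 1.000) for ATG5, next to a median of all genes of -0.03 on the log2 scale.

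Between 72 h and 12 h, ATG8 and ATG4 lay on opposite sides of the median of all genes. ATG8 had 827 FPKM at 72 h NL against 416 at 12 h HL, a ratio of 1.99 (1.97 to 2.00), just inside the limit, in a comparison where 9.10% of 14039 genes were at least 2-fold higher at 72 h NL and 24.6% at most 0.5-fold. With TPM and with size factors the ATG8 ratio was 2.11 and 2.39, past the limit. Under HL at both times, ATG8 had 962 FPKM at 72 h against 416 at 12 h, a ratio of 2.31 (2.29 to 2.33), where 8.09% of 14035 genes were at least 2-fold higher and 22.6% at most 0.5-fold. With size factors the split of all genes was 1873 higher and 2815 lower for 72 h NL and 1646 and 2599 for 72 h HL, against 1278 and 3459, and 1135 and 3165, with FPKM. ATG4 had 21.6 FPKM at 72 h NL and 21.0 at 72 h HL, against 32.1 at 12 h HL, ratios of 0.674 (0.660 to 0.690) and 0.655 (0.638 to 0.672). These lay 0.30 and 0.38 below the median of all genes in log2 units, and remained below 1 with TPM and with size factors. For ATG5 the ratios to 12 h HL were 0.865 at 72 h NL and 0.846 at 72 h HL with FPKM, but 1.04 and 1.01 with size factors.

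The ratio of 2 genes within 1 condition does not depend on how the conditions are scaled. In Control the FPKM of ATG8 was 18.6 times that of ATG4, with an upper bound of 19.2. It was 13.0 times (12.8 to 13.2) at 12 h HL, 38.2 times (37.6 to 38.9) at 72 h NL and 45.8 times (44.8 to 46.8) at 72 h HL. ATG8 thus had fewer transcripts per ATG4 transcript at 12 h HL than in Control, 0.698 of the Control ratio, and more at 72 h, 2.06 and 2.47 times the Control ratio under NL and HL.

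Relative to ATG5, ATG8 was higher than in Control in all 3 starved conditions. The FPKM of ATG8 was 7.50 times that of ATG5 (7.32 to 7.68) in Control, 9.22 times (9.09 to 9.36) at 12 h HL, 21.2 times (20.9 to 21.5) at 72 h NL and 25.2 times (24.8 to 25.7) at 72 h HL. This made 1.23, 2.82 and 3.36 times the Control ratio at 12 h HL, 72 h NL and 72 h HL. The level of ATG4 relative to ATG5 was 0.404 in Control, 0.711 at 12 h HL, 0.554 at 72 h NL and 0.550 at 72 h HL. In each condition ATG4 was thus the lower of both, and the distance was least at 12 h HL.

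Against the enzymes that lipidate ATG8 the ratios at 12 h were near those in Control, and those at 72 h were well above. ATG8 had 9.87 times the FPKM of ATG7, the activating enzyme of both systems, in Control, 10.4 times at 12 h HL, 25.8 times at 72 h NL and 30.2 times at 72 h HL. For ATG3, the conjugating enzyme of ATG8, the values were 7.98, 7.14, 22.9 and 25.2. Of all 7 genes set against ATG8, ATG4 and ATG3 were those with a ratio below the Control value at 12 h HL.

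For the genes of the second system, the ratio of ATG8 to ATG10, the conjugating enzyme of ATG12, was 19.5 in Control, 27.2 at 12 h HL, 62.2 at 72 h NL and 82.1 at 72 h HL. ATG12 was the partner whose ratio differed least from Control at 72 h HL, with 11.3 in Control and 26.3 at 72 h HL. ATG16, the lowest of the 8 genes in every condition, had 33.8 and 132 at these points. At 72 h all 7 ratios were at least 2-fold above Control under both lights, from 2.06 for ATG4 to 3.19 for ATG10 under NL and from 2.32 for ATG12 to 4.21 for ATG10 under HL. At 12 h HL, 5 of the 7 were above and none was 2-fold above. The 7 ratios of a condition share the ATG8 value and are not independent of each other. Nor was the difference particular to these partners. Of all genes, 79.0% had a smaller ratio to Control than ATG4 at 72 h NL, and 81.2% a smaller one than ATG12 at 72 h HL. Relative to those genes, ATG8 was likewise more than 2-fold above Control. At 12 h HL, 71.2% of all genes had a smaller ratio to Control than ATG8.

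**Figure D3:**
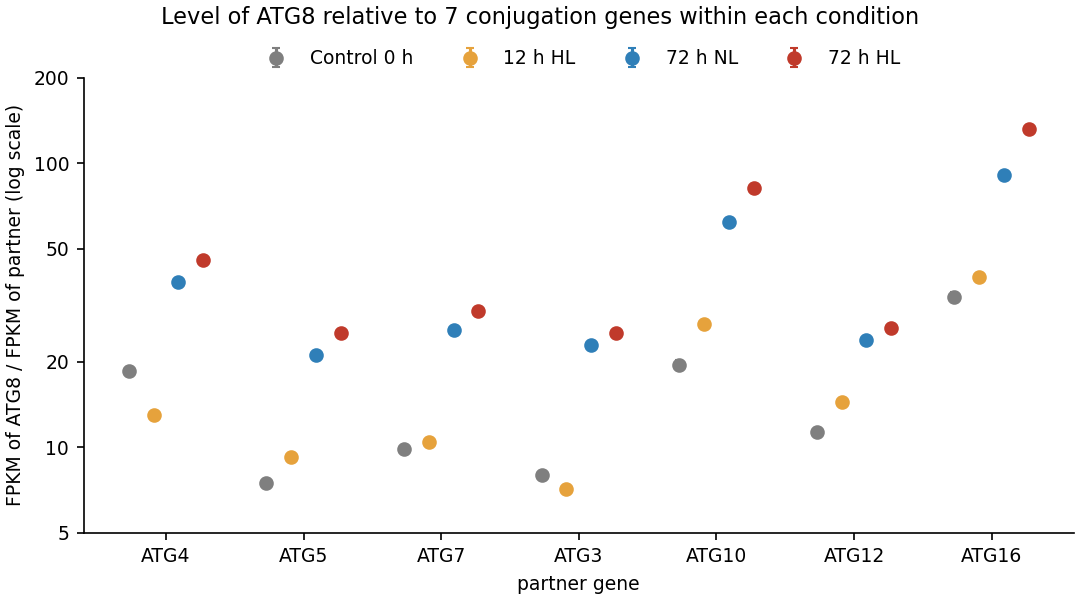
FPKM of ATG8 divided by that of 7 other conjugation genes (y axis, log scale; x axis, the partner gene) within Control, 12 h HL, 72 h NL and 72 h HL, with exact counting intervals that are mostly smaller than the points. For every partner both 72 h points lie above the Control point, and at 12 h HL the points of ATG4 (13.0) and ATG3 (7.14) lie below it.

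By level, ATG8 stood first of the 8 conjugation genes in all 4 conditions, and it made up more of their summed TPM at 72 h than in Control. Its share was 63.2% in Control, 64.4% at 12 h HL, 81.7% at 72 h NL and 83.9% at 72 h HL. The summed TPM of the other 7 genes was 230 in Control, 392 at 12 h HL, 336 at 72 h NL and 319 at 72 h HL. TPM was higher for genes in general, with a median log2 ratio to Control of 0.42 at 12 h HL, 0.24 at 72 h NL and 0.13 at 72 h HL. ATG5 was second in Control with 35.3 FPKM and at 72 h NL with 39.1 FPKM. At 72 h HL it was level with ATG3, both at 38.2 FPKM, and at 12 h HL ATG3 with 58.3 FPKM (57.5 to 59.1) lay above ATG5 with 45.1 (44.5 to 45.8). ATG4 was sixth of the 8 in Control, where its interval overlapped that of ATG10, with 4 genes above it at 12 h HL, and sixth again at both 72 h points.

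**Figure D4:**
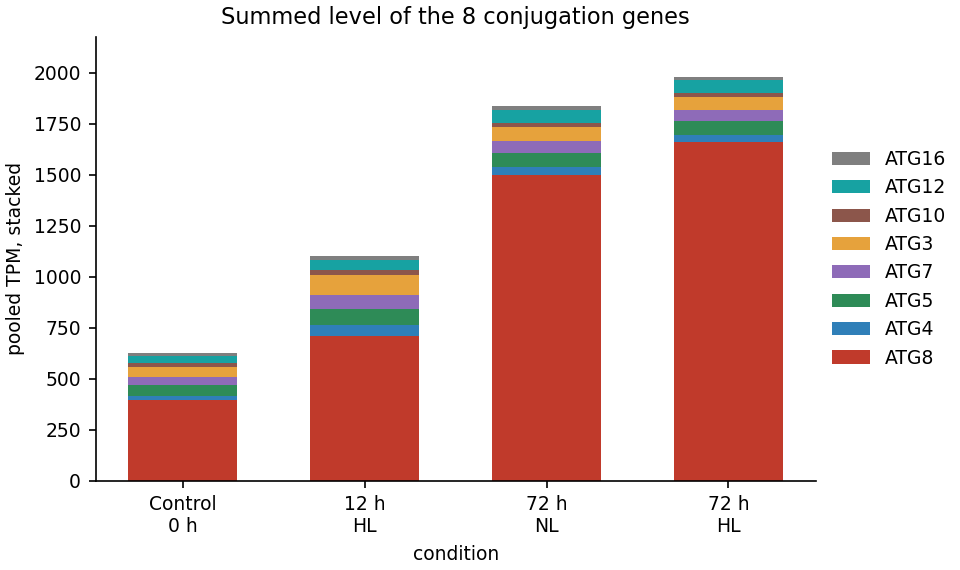
Pooled TPM (y axis) of the 8 conjugation genes, stacked, in Control, 12 h HL, 72 h NL and 72 h HL (x axis), without error bars because there is 1 pooled value per condition. ATG8 at the base takes 63.2% of the stack in Control and 83.9% at 72 h HL, while the other 7 genes together hold between 230 and 392 TPM.

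The other 5 genes of both conjugation systems held no gene past the 2-fold limit in any of the 6 comparisons by FPKM or with size factors. By FPKM, between 4.12% and 19.5% of all genes were at least 2-fold higher in these comparisons, and between 2.33% and 24.6% at most 0.5-fold. With size factors, between 544 and 2267 genes were higher and between 312 and 2815 lower by this limit. For a list of 5 genes, a count of none is not far from such shares. By TPM 3333 of 14043 genes were at least 2-fold higher at 12 h HL than in Control. Of the 5 genes, 1 was past the limit by TPM in 1 comparison, ATG3 at 12 h HL, with a TPM ratio of 2.01 to Control. Their FPKM ratios to Control ranged from 1.13 to 1.76 at 12 h HL, from 0.981 to 1.48 at 72 h NL and from 0.864 to 1.57 at 72 h HL, with medians of 1.33, 1.16 and 1.15 beside medians of all genes of 1.17, 0.970 and 0.947. Above the median of all genes were 4 of the 5 at 12 h HL, 5 at 72 h NL and 3 at 72 h HL. Among them ATG3 had the highest ratio at 12 h HL, with 58.3 FPKM against 33.2 in Control, and ATG12 the highest at 72 h, with 34.5 FPKM under NL and 36.6 under HL against 23.4 in Control. ATG10 at 12 h HL had a ratio of 1.13 with FPKM and of 0.985 with size factors, ATG10 at 72 h NL one of 0.981 with FPKM and of 1.03 with size factors, and ATG16 at 72 h HL one of 0.932 with FPKM and of 1.08 with TPM, so their direction depends on the scaling.

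The remaining 14 putative ATG genes include subunits of the ATG1 kinase complex that starts autophagy and of the class III PI3-kinase complex. Of these 14, 1 was at least 2-fold higher by FPKM than in Control at 12 h HL, 3 at 72 h NL and 2 at 72 h HL, beside 19.5%, 11.7% and 11.9% of all genes. None was at most 0.5-fold, beside 6.92%, 17.7% and 17.6% of all genes. By TPM the counts of higher genes were 2, 5 and 5, and with size factors 0, 3 and 3, so they depend on the scaling. Of all 14043, 13789 and 13827 genes compared, 3333, 2405 and 2157 were at least 2-fold higher by TPM. With size factors, 2267, 1781 and 1781 were. The median FPKM ratios of the 14 ATG genes were 1.32, 1.38 and 1.39. By FPKM, the gene at 12 h HL was VMP1, known in other organisms for a membrane protein of early autophagosome formation, with a ratio of 2.05, or 1.78 with size factors. At 72 h NL they were ATG101 (ratio 2.83) and the kinase ATG1 (2.54), both of the starting complex, and ATG14 (2.22) of the PI3-kinase complex. At 72 h HL they were ATG101 (2.20) and ATG1 (2.09). These genes were named after their values were seen.

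The pattern of each gene over the 4 conditions was compared with that of other genes by the largest difference between log2 FPKM profiles, each centred on its own mean. This measure does not depend on the scaling, and it was taken over 10338 other genes with at least 10 FPKM in one condition. Within 0.25 log2 units of ATG8 there were 56 genes (0.542%), the nearest being g10110 at 0.027, with 22.6 FPKM in Control, 36.1 at 12 h HL, 73.2 at 72 h NL and 84.2 at 72 h HL. None of the 18 other ATG genes at this level was as near, and the closest of them was ATG101, a subunit of the ATG1 kinase complex, at 0.52. In all, 575 genes, with ATG101 among them, lay at least as near to ATG8. For ATG4 there were 218 genes (2.11%) within 0.25, the nearest g1711 at 0.038, and the closest ATG gene was ATG6 of the PI3-kinase complex at 0.23, with 13.6, 23.5, 19.5 and 18.1 FPKM in Control, at 12 h HL, 72 h NL and 72 h HL. Here 171 genes, with ATG6 among them, lay at least as near to ATG4. The profile of ATG5 was common, with 1450 genes within 0.25, and g16671 was nearest at 0.020. ATG7 was the ATG gene closest to ATG5, at 0.12, but 222 genes, with ATG7 among them, lay at least as near to ATG5. Of the 18 other ATG genes compared, 4 lay within 0.25 of ATG5, beside 1450 of all 10338 genes compared. Between the 3 genes themselves the difference was 0.97 for ATG8 and ATG4, 0.89 for ATG8 and ATG5 and 0.43 for ATG4 and ATG5. The files used here do not pair the identifiers g10110, g1711 and g16671 with gene names.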

How the data were processed

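Reads were processed by the authors. The submitters' processing notes list RSEM 1.2.9, Bowtie 1.0.0, cutadapt 1.1, CASAVA 1.8 and DESeq, with genome build and annotation version not given in the sources used here. As deposited, the files hold expected counts (not normalized), FPKM and TPM of genes and of their transcripts, with each transcript's percent of the gene's TPM, as 1 pooled value per condition with 95% intervals. The weight of each culture in the pool is not stated. The effective length deposited by the authors equals the length in every row, whereas FPKM was 1.018 to 1.021 times the count divided by length and by the condition's total for ATG8 and 0.9930 to 0.9987 times for ATG4, so FPKM was made with other lengths. The authors' tables of comparisons (mean normalised counts, fold changes, log2 values and p-values from DESeq) were not used.

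Ratios of FPKM were computed without a pseudocount. Genes that reached 1 FPKM in either condition were kept, which held for the 3 genes and all other ATG genes in every comparison, and a ratio of at least 2 or at most 0.5 counted as a call. Counting intervals are exact (Clopper-Pearson) on 2 rounded expected counts, at a confidence of 95%. The planned count test needed values per library and was not run, as values are pooled. The 3 genes, the 5 other conjugation genes and the nearest gene by pattern, overall and among the ATG genes, were named, and the 14 other ATG genes were counted. Members and lists were chosen with earlier results of these data known. The steps were tested on simulated counts. Alternatives were TPM, expected counts per total, median-of-ratios size factors, a pseudocount of 1 FPKM, no minimum or 10 FPKM, and the most abundant transcript. Computation used scipy 1.17.1, numpy 2.4.6 and pandas 2.3.3 under Python 3.11.15, with matplotlib 3.10.9 for plots.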

Additional observations from a re-analysis of the deposited data

How the results depend on the processing

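No paired analysis was possible because each condition has 1 pooled value, and leaving out a replicate could not be done for the same reason. With expected counts per total and with the most abundant transcript, all 18 ratios of the 3 genes between conditions stayed within their counting intervals. This was fixed in advance and is no check of the ratios. Each gene has a single transcript, and counts per total differ from FPKM by a length factor that was nearly the same in all conditions. With TPM the ratios to Control of ATG8, ATG4 and ATG5 were 1.79, 2.57 and 1.46 at 12 h HL, 3.79, 1.84 and 1.34 at 72 h NL, and 4.20, 1.70 and 1.25 at 72 h HL. With size factors they were 1.37, 1.96 and 1.11 at 12 h HL, 3.28, 1.59 and 1.16 at 72 h NL, and 3.79, 1.54 and 1.13 at 72 h HL. These shifts follow from the construction, as each scaling multiplies every gene of a condition by 1 factor, up to the small difference between count and FPKM ratios. ATG4 at 12 h HL had a ratio of 2.17 with a pseudocount of 1 FPKM. No direction against Control changed under these alternatives. The changes of the ATG8 to ATG4 and ATG8 to ATG5 ratios stayed within counting error under all 4 alternatives run on them. For TPM, expected counts and the most abundant transcript this was fixed in advance, so only the pseudocount could have moved them. With the pseudocount, the change of the ATG8 to ATG4 ratio at 12 h HL was 0.724, against 0.698 without it. With at least 10 FPKM in one condition, fewer genes enter, and 1825 were at least 2-fold higher at 12 h HL, while 1467 at 72 h NL and 1320 at 72 h HL were at most 0.5-fold. Between 72 h HL and 72 h NL, 1220 genes were at least 2-fold higher and 712 at most 0.5-fold with no minimum (549 and 310 with 1 FPKM), 281 and 123 with 10 FPKM, and 167 at most 0.5-fold with the pseudocount. At most 0.5-fold against 12 h HL were 2297 genes at 72 h NL and 2006 at 72 h HL with 10 FPKM. Depth did not limit the values of the 3 genes, each of which rests on at least 4093 expected counts. The missing spread between cultures did.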

Other observations

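ATG7, which activates ATG8 and ATG12, and ATG12 itself are quantified as 2 transcripts each, and their proportions differed between conditions. The longer ATG7 transcript (3058 bases, against 2857 bases) held 50.9% of the gene's TPM in Control, 79.3% at 12 h HL, 60.4% at 72 h NL and 63.6% at 72 h HL. In FPKM it had 13.7, 31.9, 19.4 and 20.3, while the shorter one had 13.2, 8.30, 12.7 and 11.6. The longer ATG12 transcript (1999 bases, against 1494 bases) held 56.0% in Control, 51.9% at 12 h HL, 69.9% at 72 h NL and 69.5% at 72 h HL. Its FPKM was 13.1, 15.1, 24.1 and 25.4, and the shorter one was at its highest at 12 h HL, with 10.3 in Control, 10.4 at 72 h NL and 11.2 at 72 h HL. ATG3 has 3 transcripts, of which the main one held between 93.2% and 96.3%. How reads shared by overlapping transcripts were divided rests on the estimate of RSEM, and no spread between cultures is known for these shares.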
